A study of Mus musculus with 8 samples.

Results

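The 44 genes described here encode the enzymes that break down fatty acids in mitochondria and peroxisomes, enzymes of ketone body metabolism, and nuclear receptors and target genes tied to both. They were taken as a named list of mouse gene symbols, and every probe set annotated with 1 of these symbols and no other was used. Probe sets met that rule for 41 of the 44 genes, 77 probe sets in all, of which 65 passed a filter on low signal and were tested. The array carried 18193 single gene symbols, of which 11719 had a tested probe set. By class, 20 of 22 mitochondrial genes, 11 of 11 peroxisomal genes, 2 of 2 ketone genes and 8 of 9 regulators and target genes were measured. Cpt1b, Ucp2 and Acsl1 had no probe set under 1 symbol in the annotation used and are not analysed here.

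The samples were gallbladders of female B6.V-lepob mice, which are obese because both copies of the leptin gene are mutated, so all mice of both treatments lacked functional leptin of their own. The 24 mice arrived at 7 weeks of age, were kept on standard chow, and after 1 week of acclimation received an injection into the peritoneum every day for 4 weeks. The leptin group (12 mice) received 5 µg of recombinant mouse leptin per g of body weight, and the control group (12 mice) received saline. Gallbladders were taken from mice aged 12 weeks that had been fasted overnight, so all values belong to fasted mice, and 3 gallbladders were pooled per RNA sample, which gave 4 saline pools (saline 1 to 4) and 4 leptin pools (leptin 5 to 8) on 1 array each. The pools held different mice. The spread between pools is thus a spread between means of 3 mice, and no mouse that makes its own leptin was among the samples analysed here. A signal is the array software's linear brightness of 1 probe set, so levels are compared between pools and never between genes, and tests were run on log2(signal + 8.2).

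Fatty acids are activated to acyl-CoA, carried into mitochondria as carnitine esters, and shortened in a repeated cycle of dehydrogenation, hydration, dehydrogenation and thiolysis, with electrons passed on through the electron transfer flavoprotein. Peroxisomes run a related cycle on very long and branched chains and on dicarboxylic acids, and hand the shortened products over as carnitine esters or as free acids released by thioesterases. In fasting, the liver turns acetyl-CoA from this oxidation into ketone bodies, which other tissues oxidise, and the nuclear receptor PPAR alpha drives many of these genes there. The gallbladder is lined by a biliary epithelium and lies against the liver.

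Several features of the pools bear on all of the values below. Hepatocyte markers such as albumin were well above background in every pool. The 12 hepatocyte markers summed to 106441 to 163634 signal units in saline pools and to 130832 to 158690 in leptin pools, and 1 of the 12, Apoa1, rose with leptin. Their mean log2 level, set to 0 over the 8 pools, was lowest in saline 1 (-0.42) and leptin 7 (-0.20), and these pools stand apart in the genes described here as well. In bulk RNA, fewer cells of a type and less RNA per cell cannot be told apart. Of the 10 gallbladder epithelial markers with a probe set, 9 were tested, Krt7, Krt8 and Krt18 fell and Tff2 rose, and their sum was 40468 to 50802 in saline pools and 34315 to 39038 in leptin pools. Macrophage markers rose (7 of 8, with sums of 3856 to 4843 against 8335 to 9195), as did the 3 tested B and plasma cell markers. The 5 B and plasma cell markers with a probe set, tested or not, summed to 288.5 to 356.3 against 2966 to 6608. Adipocyte markers summed to 1876 to 6367 against 1936 to 2745, with 1 of 6 lower. Brown adipocyte markers summed to 2064 to 2512 in saline and 1245 to 1682 in leptin pools, with no overlap. Of the 4 tested, 1 was lower, and Ucp1 was under background in all 8 pools. The signal ratio of the 3' to the 5' probe set of beta-actin, a measure of RNA integrity and labelling, was 1.50 to 1.68 in saline pools and 1.67 to 2.17 in leptin pools (two-sided exact permutation test, p = 0.0571, where 70 assignments allow no p below 0.0286), and the median signal of an array was 77.8 to 87.3 against 94.0 to 107 (exact permutation p = 0.0286). The same ratio for Gapdh was 0.774 to 0.870 in saline and 0.791 to 0.846 in leptin pools (exact permutation p = 0.857). The part played by the differences given above in the results below was not tested, except where a value is given.

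Most of these genes had leptin values close to their saline values. Acot3, which encodes a peroxisomal thioesterase that frees fatty acids from their CoA esters, was the 1 gene that rose, 2.03-fold, and none fell at an adjusted p under 0.05. Over probe sets, 1 of 65 was called (1.54%), against 6.93% of the 22519 probe sets tested on the array (3.54% higher and 3.39% lower). Over genes, each read from its brightest tested probe set, 1 of 41 was called, against 8.27% of all 11719 (4.29% higher and 3.98% lower). An unadjusted p under 0.05 was found for 15 of the 65 probe sets (23.1%), against 23.5% of all. Leptin and saline pools did not overlap for 2 of the 65 (3.08%), those of Acot2 and Eci2, against 15.5% of all. The share called among these genes was thus below that of the array, and the share with a small unadjusted p was close to it.

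The fitted log2 fold changes, leptin minus saline, were above 0 for 20 genes and below 0 for 21. For 37 of the 41 genes the fold change lay within 0.5 of 0 on the log2 scale, as it did for 84.2% of all genes. The 95% interval of the fit stayed within 1 log2 unit of 0 for 37 of 41. The medians were -0.080 over 20 mitochondrial genes, -0.020 over 11 peroxisomal genes, 0.023 over 2 ketone genes and 0.29 over 8 regulators and target genes, against 0.020 over all tested genes. Which side of 0 the first 3 medians take depends on the scaling: quantile normalization gave 0.039, 0.060 and 0.16, and centring each array on its median gave -0.33, -0.27 and -0.23. The list was drawn up with earlier results of these data known, so its counts are a description.

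**Figure D1:**
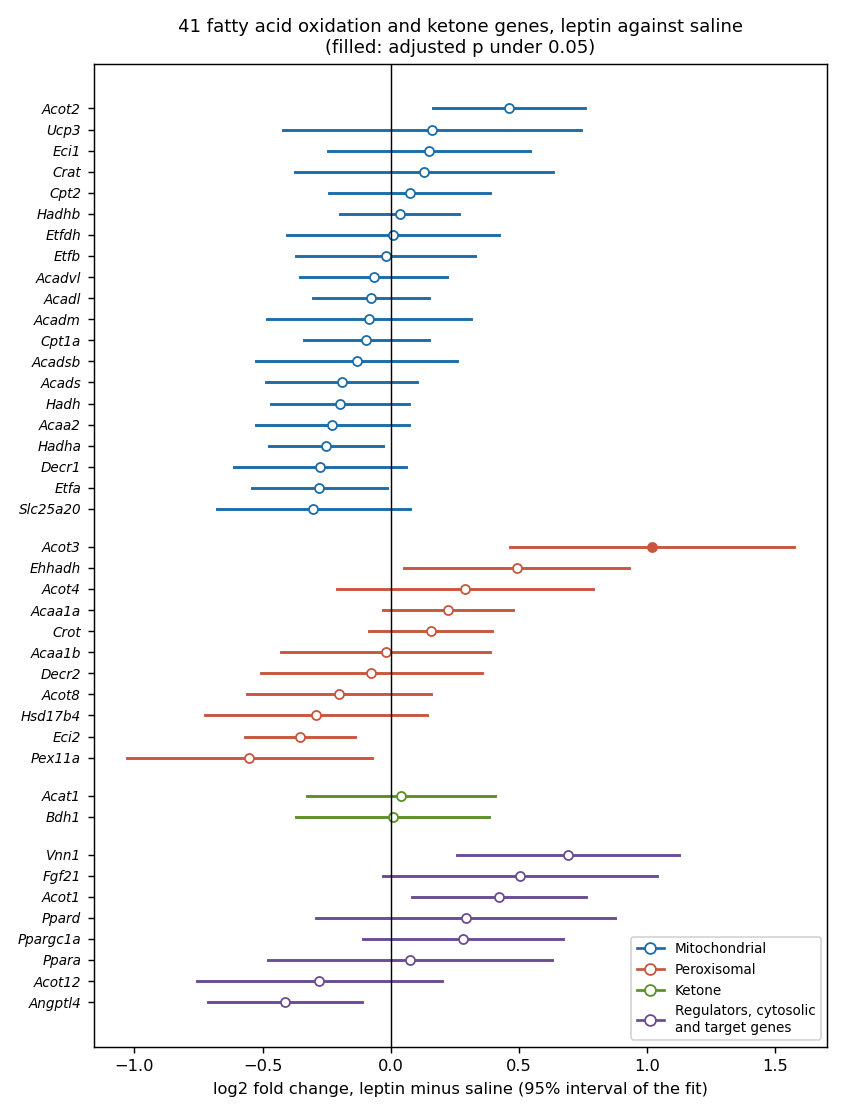
Log2 fold change, leptin minus saline, of the 41 measured genes by class, each from its brightest tested probe set; points are the limma estimate, bars its 95% interval, n = 4 pools per treatment. The filled point is Acot3 at 1.02, the 1 gene with an adjusted p under 0.05, and the other 40 points are open.

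Entry of long chains into mitochondria begins with Cpt1a, the liver form of carnitine palmitoyltransferase 1 and the regulated step of the pathway. Its signal was 4045.6, 4664.6, 4924.0 and 4059.0 in saline 1 to 4 and 4901.6, 3979.2, 3636.4 and 4083.2 in leptin 5 to 8. The groups overlapped over most of their range, and the fitted difference was -0.095 ± 0.11 (SE; n = 4 pools per treatment here and throughout). Its 2 dimmer probe sets differed from it in sign (0.11 and 0.091), neither called. Cpt2, which turns the carnitine ester back into acyl-CoA inside the mitochondrion, stood at 984.4, 1193.3, 1374.8 and 1136.0 in saline and 1482.3, 1122.3, 998.6 and 1358.4 in leptin pools. The difference was 0.074 ± 0.15, and a much dimmer probe set gave 0.67 (adjusted p 0.176, limma). In the brighter probe set the order of the pools was as follows. Leptin 5 and saline 3 were the highest of each group and saline 1 and leptin 7 the lowest, a pattern that recurs below. Slc25a20, the carrier that exchanges acylcarnitine for carnitine across the inner membrane, had signals of 2121.9, 2936.6, 3497.3 and 2759.5 in saline and 2414.1, 2191.5, 1683.7 and 2913.0 in leptin pools. Its fitted difference was -0.30 ± 0.17 with an adjusted p of 0.319 by limma, and the groups overlapped. A dimmer probe set gave -0.39 (adjusted p 0.173, limma). Crat, carnitine acetyltransferase, gave differences of opposite sign in its 2 tested probe sets (0.13 and -0.18), neither called.

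The acyl-CoA dehydrogenases carry out the first oxidation of each cycle and are named for the chain length they prefer. Acadvl, the very long chain enzyme, had signals of 2332.4, 2805.1, 3058.1 and 2731.4 in saline and 3262.9, 2507.6, 2135.9 and 2601.6 in leptin pools. Acadl, the long chain enzyme, had 3166.3, 3425.2, 3864.1 and 3966.5 in saline and 3695.1, 3144.9, 3219.7 and 3588.3 in leptin pools. Both overlapped between treatments, with fitted differences of -0.066 ± 0.13 and -0.077 ± 0.10. Acadm, the medium chain enzyme, had 4502.1, 5724.5, 5644.7 and 4034.5 in saline and 6155.4, 4652.5, 3113.2 and 5211.7 in leptin pools. Leptin 5 lay above and leptin 7 below every saline pool. The fitted difference for Acadm was -0.084 ± 0.18. The short chain enzyme Acads and the branched chain enzyme Acadsb differed by -0.19 ± 0.14 and -0.13 ± 0.18, with overlapping groups.

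The later steps on long chains are run by the mitochondrial trifunctional protein, made of Hadha and Hadhb subunits. Hadha had signals of 2627.4, 3139.2, 2802.3 and 2857.0 in saline and 2746.6, 2321.0, 2238.9 and 2295.1 in leptin pools. Leptin 6, 7 and 8 lay below all saline pools and leptin 5 lay within their range, and the fitted difference of -0.25 ± 0.10 had an adjusted p of 0.161 by limma. Hadhb, the thiolase subunit, had 4227.8, 4410.8, 3805.6 and 5265.0 in saline and 4326.6, 4828.3, 4376.6 and 4506.1 in leptin pools, with a difference of 0.035 ± 0.11. The subunits of this 1 complex were therefore both uncalled, and the difference between their changes was not tested. Hadh, which oxidises short and medium chain hydroxyacyl-CoA, differed by -0.20 ± 0.12, and its 3 tested probe sets ran from -0.31 to 0.039. Acaa2, the thiolase that ends the cycle on medium chains, had 3867.6, 5903.1, 6080.7 and 5117.4 in saline and 4639.7, 4412.3, 3830.7 and 4808.4 in leptin pools. Its 3 probe sets gave nearly the same difference, -0.24 to -0.23, none called, with saline 1 among the leptin pools and saline 2, 3 and 4 above all of them.

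Unsaturated chains need auxiliary enzymes. Decr1, the mitochondrial 2,4-dienoyl-CoA reductase, had 1929.6, 2716.5, 3014.8 and 2214.3 in saline and 2385.0, 1791.0, 1693.1 and 2241.0 in leptin pools. The groups overlapped, with a fitted difference of -0.28 ± 0.15, and a dimmer probe set gave 0.18, so the 2 differed in sign. Eci1, an enoyl-CoA isomerase, differed by 0.15 ± 0.18. The electron transfer flavoprotein passes electrons from the dehydrogenases to the respiratory chain: its alpha subunit Etfa differed by -0.28 ± 0.12 (adjusted p 0.187, limma) and its beta subunit Etfb by -0.02 ± 0.16. Etfdh, the oxidoreductase that takes up these electrons in the membrane, had 1382.2, 2355.1, 2631.3 and 1988.1 in saline and 2509.1, 1879.4, 1606.1 and 2312.4 in leptin pools, an overlap with a difference of 0.01 ± 0.19. Ucp3, an uncoupling protein relative found mainly in muscle and brown fat, was dim at 77.9, 96.3, 105.3 and 69.8 in saline and 68.9, 136.5, 110.3 and 86.3 in leptin pools. All 8 of these values lay above the background signal of 46.0, and the groups overlapped. Skeletal muscle markers were dim as well, with 1 of 8 tested and sums of 304.4 to 472.7 in saline and 283.4 to 485.9 in leptin pools.

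The acyl-CoA thioesterases Acot1, Acot2, Acot3 and Acot4 are close relatives that act in the cytosol (Acot1), in mitochondria (Acot2) and in peroxisomes (Acot3 and Acot4), and their genes lie side by side on mouse chromosome 12. The order there, per RefSeq on GRCm38.p6, is Acot2, Acot1, Acot4, Acot3, Acot5 and Acot6. The 250 bases before the start site of the 4 measured genes are printed from RefSeq (GRCm38.p6, plus strand), because they are neighbours whose fitted differences ran from 0.29 to 1.02 with 1 of the 4 called. They lie at chr12:83987611-83987860 (Acot2), chr12:84009252-84009501 (Acot1), chr12:84038129-84038378 (Acot4) and chr12:84051894-84052143 (Acot3, the first along the chromosome of its 2 windows in the table). Capitals mark each match, on either strand, to AGGTCA, the hexamer recognised by nuclear receptors such as PPAR alpha (TGACCT on the other strand), or to CCAAT, a common promoter element (ATTGG on the other strand).
Acot2: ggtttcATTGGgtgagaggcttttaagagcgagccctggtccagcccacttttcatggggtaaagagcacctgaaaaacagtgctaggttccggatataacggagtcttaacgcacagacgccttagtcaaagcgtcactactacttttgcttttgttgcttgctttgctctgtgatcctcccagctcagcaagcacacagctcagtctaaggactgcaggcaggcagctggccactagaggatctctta
Acot1: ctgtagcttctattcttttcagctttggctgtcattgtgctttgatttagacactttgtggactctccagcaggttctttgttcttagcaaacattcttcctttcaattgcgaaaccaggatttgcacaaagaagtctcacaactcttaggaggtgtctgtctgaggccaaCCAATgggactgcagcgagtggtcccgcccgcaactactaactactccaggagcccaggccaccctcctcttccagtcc
Acot4: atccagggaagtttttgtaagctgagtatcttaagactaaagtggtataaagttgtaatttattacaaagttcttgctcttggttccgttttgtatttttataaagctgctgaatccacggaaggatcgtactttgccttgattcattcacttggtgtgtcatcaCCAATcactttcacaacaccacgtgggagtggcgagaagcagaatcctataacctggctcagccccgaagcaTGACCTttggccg
Acot3: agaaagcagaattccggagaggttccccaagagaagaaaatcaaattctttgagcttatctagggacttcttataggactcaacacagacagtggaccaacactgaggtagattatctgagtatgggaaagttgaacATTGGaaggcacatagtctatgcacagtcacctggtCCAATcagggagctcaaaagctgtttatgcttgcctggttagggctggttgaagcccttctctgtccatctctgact
Each of the 4 windows held CCAAT on 1 strand or the other, 79 bases before the start in Acot1, 85 in Acot4, 77 and 113 in Acot3 and 244 in Acot2. AGGTCA was found in Acot4 alone, 13 bases before the start and on the opposite strand. Among all 32851 promoter windows of this length in the table, 14.0% held AGGTCA and 33.8% held CCAAT. Of the 39 windows matched to 36 of the 44 genes, 6 held AGGTCA (15.4%; those of Acadm, Acadvl, Acot12, Acot4, Cpt1a and Ucp3) and 18 held CCAAT (46.2%). The direct repeat AGGTCANAGGTCA, which contains the hexamer at both ends, was in 0 of the 39 windows and in 0.0335% of all. A match is a match of letters only, and a window without one says nothing of more distant sequence.

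Acot3 had signals of 282.6, 451.9, 581.1 and 310.0 in saline 1 to 4 and 1030.8, 692.9, 523.4 and 1082.7 in leptin 5 to 8. Leptin 5, 6 and 8 lay above every saline pool, and leptin 7 lay below saline 3, so the groups overlapped by 1 pool. The mean was 406 ± 138 in saline and 833 ± 269 in leptin pools (SD), and the log2 fold change was 1.02 ± 0.26 (95% interval 0.46 to 1.57; adjusted p 0.0324, limma). The probe set is annotated to Acot3 alone but belongs to a class that can bind several related transcripts, and signal from its near relatives cannot be told apart from its own. The call was lost without saline 1 (adjusted p 0.0779), saline 2 (0.0541), saline 4 (0.0942), leptin 5 (0.0848), leptin 6 (0.0581) or leptin 8 (0.0900), and the fold change stayed between 0.87 and 1.22 whichever pool was left out. With the actin ratio as a covariate it was 0.25 ± 0.26 (adjusted p 0.653), and with each array centred on its median it was 0.77 (0.0532).

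Its neighbours had smaller fitted differences, none called. Acot2 had 793.4, 913.4, 893.8 and 696.9 in saline and 918.6, 1197.6, 1137.9 and 1310.7 in leptin pools. Every leptin pool lay above every saline pool, the lowest, leptin 5, by a small margin over saline 2, and the difference was 0.46 ± 0.14 (adjusted p 0.0615, limma). Acot1 had 1135.0, 1489.3, 1612.4 and 1155.0 in saline and 1934.3, 1682.1, 1414.6 and 2219.9 in leptin pools. Leptin 7 lay below saline 2 and 3 and the other leptin pools above all saline pools, with a difference of 0.42 ± 0.16 (adjusted p 0.128). The 2 tested probe sets of Acot4 differed in sign (0.29 and -0.15), and its groups overlapped in both. Acot5, the next gene along, was under background in all 8 pools. Acot8, a further peroxisomal thioesterase encoded elsewhere, differed by -0.20 ± 0.17.

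**Figure D2:**
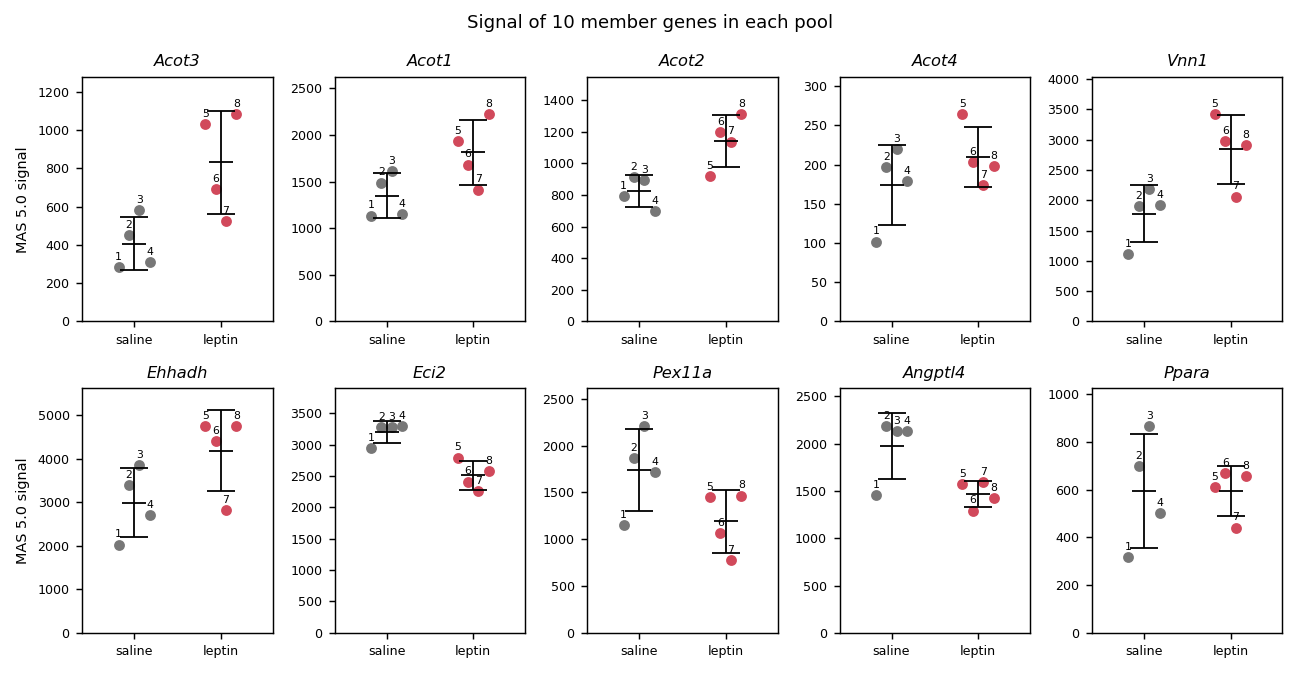
MAS 5.0 signal of 10 genes in each saline pool (1 to 4, grey) and leptin pool (5 to 8, red), linear axes from 0; bars are the mean ± SD of 4 pools. Acot2 and Eci2 separate the treatments, Acot3 leaves leptin 7 within the saline range, and saline 1 is the lowest saline pool in 9 of the 10 panels, Acot2 being the exception.

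In the peroxisomal cycle, Ehhadh, the bifunctional enzyme for straight chains and dicarboxylic acids, and Hsd17b4, the bifunctional enzyme for branched and very long chains, had estimates on opposite sides of 0. Ehhadh had 2030.0, 3387.6, 3853.4 and 2711.8 in saline and 4757.7, 4412.4, 2814.1 and 4760.6 in leptin pools. Leptin 5, 6 and 8 lay above all saline pools and leptin 7 lay among them, and the difference of 0.49 ± 0.20 had an adjusted p of 0.165 by limma. Hsd17b4 had 1925.7, 2771.3, 3182.6 and 2212.2 in saline and 2572.2, 1994.8, 1347.9 and 2408.8 in leptin pools. Its groups overlapped, with a difference of -0.29 ± 0.20 (adjusted p 0.408). With the actin ratio as a covariate both estimates lay below 0 (-0.11 for Ehhadh and -0.94 for Hsd17b4). Whether the 2 enzymes differ in their response was not tested. Acaa1a, a peroxisomal thiolase, had 641.2, 739.8, 608.0 and 616.8 in saline and 762.1, 709.7, 830.2 and 741.9 in leptin pools, with only leptin 6 inside the saline range and a difference of 0.22 ± 0.12. Its near relative Acaa1b differed by -0.02 ± 0.19, and the probe sets of these related genes may share transcripts.

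Eci2, a peroxisomal and mitochondrial enoyl-CoA isomerase for unsaturated chains, came closest to a call among the genes with lower estimates. Its signals were 2943.3, 3279.0, 3282.8 and 3299.5 in saline and 2792.2, 2410.2, 2261.3 and 2575.9 in leptin pools, so that every leptin pool lay below every saline pool. The fitted difference was -0.35 ± 0.099, a saline level 1.28 times that of leptin, with an adjusted p of 0.0507 by limma, just past the threshold. Without saline 1 it was -0.39 (adjusted p 0.0424), and without leptin 5 it was -0.41 (0.0496). Decr2, the peroxisomal counterpart of Decr1, differed by -0.076 ± 0.20. Crot, which makes carnitine esters of medium chains for export to mitochondria, had 4077.1, 4792.9, 5158.4 and 5401.5 in saline and 5892.4, 5231.4, 4737.7 and 5745.0 in leptin pools, with overlapping groups and a difference of 0.16 ± 0.11. Pex11a, a membrane protein that takes part in peroxisome division, had 1152.6, 1869.9, 2212.3 and 1719.8 in saline and 1451.7, 1065.7, 775.5 and 1466.4 in leptin pools. Saline 1 lay among the leptin pools and the other 3 saline pools above all of them, and the difference was -0.55 ± 0.22 (adjusted p 0.152), with -0.66 (0.0920) in the other probe set.

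Of the ketone genes, Bdh1, which interconverts acetoacetate and 3-hydroxybutyrate, had 1855.4, 2936.6, 3053.9 and 2380.1 in saline and 3017.8, 2668.0, 1863.9 and 2691.5 in leptin pools. Acat1, the mitochondrial acetoacetyl-CoA thiolase that acts in both the making and the use of ketone bodies, had 2922.9, 4522.7, 4576.2 and 3619.7 in saline and 4976.6, 3784.4, 2998.8 and 4327.3 in leptin pools. In both genes the treatments overlapped almost fully, and saline 1 and leptin 7 were the lowest pools of their groups. The differences were 0.0071 ± 0.17 and 0.04 ± 0.17, with 95% intervals of -0.37 to 0.38 and -0.33 to 0.41, so a change of the size of that of Acot3 lay outside both. None of the 5 tested probe sets of the 2 genes was called, and the dimmer Bdh1 probe set gave 0.44 (adjusted p 0.280).

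A wider list of ketone genes, drawn up with these data known, held 8 symbols, of which 6 were tested. By the brightest probe set of each, 1 rose and 1 fell, with a median of -0.31. Of all tested genes, 8.27% were called (4.29% higher and 3.98% lower). Oxct1, the mitochondrial transferase that activates acetoacetate in tissues that burn ketone bodies and that hepatocytes lack, rose. It stood at 542.9, 599.8, 629.3 and 664.1 in saline and 1210.8, 1233.5, 1244.9 and 1231.6 in leptin pools. The leptin pools were nearly equal and all lay far above the highest saline pool, with a difference of 1.01 ± 0.11 (adjusted p 1.3e-04, limma), and all 4 probe sets of the gene were called higher, by 0.84 to 1.06. Oxct1 stayed called under every alternative tried, among them the actin covariate (1.00, adjusted p 0.0069). Macrophage and B cell marker sums rose in the same 4 pools, and their part in the Oxct1 value was not tested. Slc16a6, a transporter known for ketone body export from liver cells, fell: its signals were 396.8, 398.5, 325.8 and 312.6 in saline and 182.9, 94.8, 74.3 and 239.7 in leptin pools, with no overlap and a difference of -1.36 ± 0.29 (adjusted p 0.0157; 0.0507 without leptin 6). The tested probe sets of Aacs, a cytosolic enzyme that activates acetoacetate for lipid synthesis, differed in their call. The brighter gave -0.51 ± 0.17 (adjusted p 0.0939, limma). The dimmer fell, at 253.3, 230.9, 292.9 and 298.3 in saline and 156.6, 134.5, 92.6 and 75.7 in leptin pools, with no overlap and a difference of -1.21 ± 0.22 (adjusted p 0.0067).

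**Figure D3:**
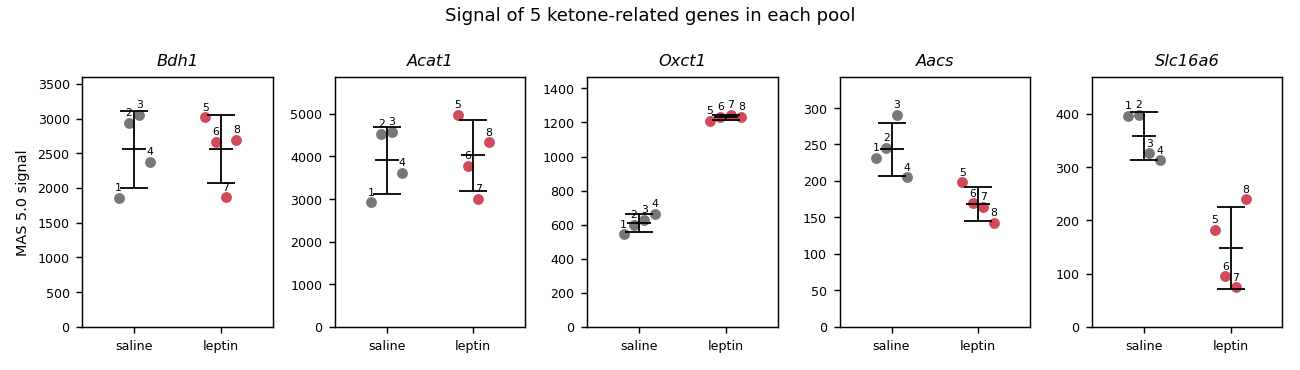
MAS 5.0 signal of the ketone genes Bdh1 and Acat1 and of the brightest probe set of 3 other ketone-related genes in each saline pool (1 to 4, grey) and leptin pool (5 to 8, red), linear axes from 0; bars are the mean ± SD of 4 pools. Bdh1 and Acat1 overlap between treatments, while Oxct1 lies at 1210.8 to 1244.9 in leptin pools against 542.9 to 664.1 in saline pools and Slc16a6 at 74.3 to 239.7 against 312.6 to 398.5.

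Among the regulators, Ppara, the receptor PPAR alpha, had 316.0, 698.1, 867.1 and 499.9 in saline and 611.0, 668.9, 440.4 and 656.6 in leptin pools. The leptin pools lay inside the saline range, the difference was 0.074 ± 0.26, and the 3 tested probe sets ran from 0.074 to 0.23. Ppard, the related receptor PPAR delta, differed by 0.29 ± 0.27. Ppargc1a, a coactivator of both receptors and of mitochondrial gene expression, was dim, with 133.7, 149.4, 121.6 and 110.3 in saline and 168.8, 146.6, 153.3 and 161.6 in leptin pools. Leptin 5, 7 and 8 lay above all saline pools and leptin 6 between saline 1 and 2, and the difference of 0.28 ± 0.18 was not called. Acot12, a cytosolic acetyl-CoA thioesterase, differed by -0.28 ± 0.22.

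The 3 secreted or surface targets of these receptors had larger estimates, none called. Vnn1, a pantetheinase that recycles the vitamin part of CoA and a known PPAR alpha target, had 1111.7, 1910.0, 2186.6 and 1917.8 in saline and 3417.1, 2982.4, 2059.2 and 2906.0 in leptin pools. Leptin 5, 6 and 8 lay above all saline pools and leptin 7 below saline 3, with a difference of 0.69 ± 0.20 (adjusted p 0.0570, limma) and 0.77 (0.0605) in a second probe set. Angptl4, a secreted inhibitor of lipoprotein lipase induced by fasting, had 1458.3, 2189.1, 2130.7 and 2128.6 in saline and 1574.0, 1291.4, 1590.0 and 1420.0 in leptin pools. Saline 2, 3 and 4 lay well above all leptin pools and saline 1 fell among them, with a difference of -0.41 ± 0.14 (adjusted p 0.0956). Without saline 1 it was -0.55 (adjusted p 0.0142). Fgf21, a fasting hormone of the liver, differed by 0.50 ± 0.25 (adjusted p 0.241).

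Many of these genes had their lowest signal in the same pools. Saline 1 was the lowest saline pool for 32 of the 41 genes (78.0%) and leptin 7 the lowest leptin pool for 31 (75.6%), and both held for 29 (70.7%). Of all 11719 tested genes these shares were 27.1%, 31.2% and 9.91%, and of the 12 hepatocyte markers both held for 9. Among peroxisomal genes, both held for 10 of 11. The mean log2 level of the 20 mitochondrial genes, set to 0 over the 8 pools, was -0.20 in saline 1 and -0.21 in leptin 7 and ran from -0.040 to 0.20 in the other 6. That of the 11 peroxisomal genes was -0.40 and -0.33, and ran from -0.077 to 0.25 in the others. The pool means of the treatments differed by less than these spreads, at 0.030 ± 0.17 in saline and -0.030 ± 0.14 in leptin pools for mitochondrial genes and -0.031 ± 0.28 and 0.031 ± 0.26 for peroxisomal genes (SD). The hepatocyte markers were low in the same 2 pools. The genes listed here are expressed in liver too, so a level shared with these markers is what the 2 lists have in common in these pools and is given as a description.

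**Figure D4:**
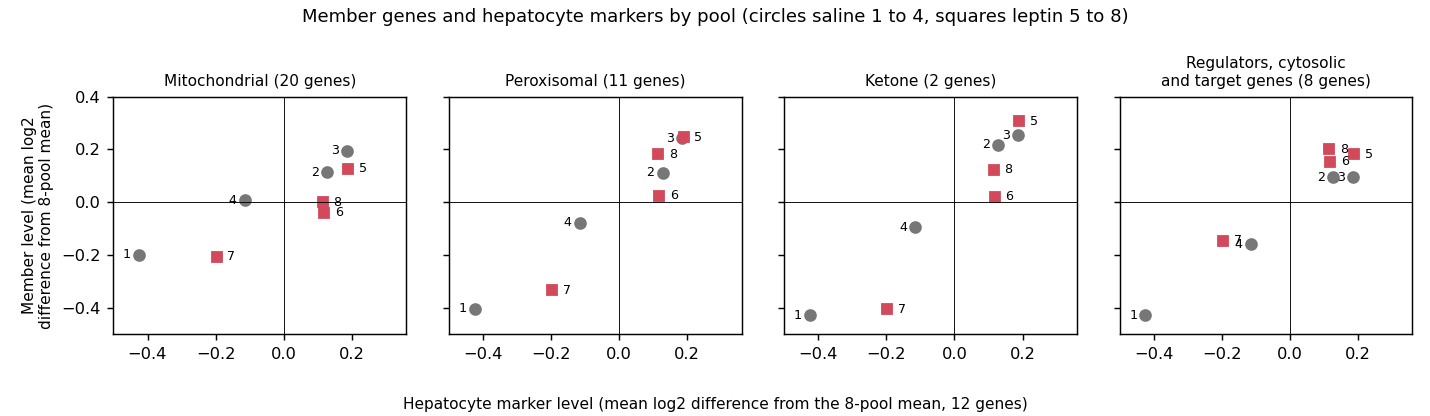
Mean log2 level of each class of genes (vertical axis) against the mean log2 level of 12 hepatocyte markers (horizontal axis), both as differences from the 8-pool mean; circles are saline 1 to 4 and squares leptin 5 to 8. Saline 1 and leptin 7 lie at the lower left in all 4 panels, and the treatments are not separated along either axis.

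The comparison was therefore also fitted with the hepatocyte marker level of each pool as a covariate, an alternative added after these values had been seen. Of the 65 probe sets, 19 were then called (29.2%; 4 higher and 15 lower), against 8.89% of all tested probe sets (4.10% higher and 4.79% lower). By gene, 3 were higher and 10 lower. The higher genes were Acot3 (0.82 ± 0.17), Vnn1 (0.52 ± 0.10) and Ehhadh (0.31 ± 0.088). The lower ones were the mitochondrial Slc25a20 (-0.43 ± 0.11), Hadh (-0.30 ± 0.068), Acaa2 (-0.34 ± 0.078), Decr1 (-0.39 ± 0.10) and Etfa (-0.35 ± 0.093), the peroxisomal Hsd17b4 (-0.46 ± 0.12), Eci2 (-0.39 ± 0.087) and Pex11a (-0.73 ± 0.13), and Acot12 (-0.46 ± 0.13) and Angptl4 (-0.47 ± 0.13). Neither ketone gene was called. In this fit the adjusted p was 0.0105 for Acot3, 0.0038 for Pex11a and 0.0092 for Vnn1 (limma). The standard error of Ehhadh went from 0.20 to 0.088 and that of Pex11a from 0.22 to 0.13 log2 units. Most estimates also moved down, as those of Ehhadh from 0.49 to 0.31 and of Pex11a from -0.55 to -0.73. Those of Crat, Hadhb, Acaa1a and Ppard moved up.

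The covariate itself holds Apoa1, which rose with leptin (0.70, adjusted p 0.0268). Without Apoa1 in it, 14 probe sets were called (21.5%; 4 higher and 10 lower), against 9.52% of all (4.45% higher and 5.08% lower), and the genes were 3 higher and 6 lower. Leaving out saline 1 and leptin 7 instead gave 5 called probe sets (7.69%; 4 higher and 1 lower) against 6.44% of all (3.22% in each direction), those of Acot3 (1.07), Vnn1 (0.63 and 0.73), Ehhadh (0.50) and Angptl4 (-0.59). With the actin ratio as the covariate, 10 were called, all lower (15.4%), against 2.90% of all (1.11% higher and 1.80% lower), and Vnn1 and Acot3 were at 0.12 and 0.25. With each array centred on its median, 14 were called, all lower (21.5%), against 17.7% of all (15.9% lower). That centring moved the median of all tested probe sets from 0.039 to -0.21, so a lower value there is to be read against that shift. By their brightest probe sets, the mitochondrial Decr1 and Etfa and the peroxisomal Eci2 and Pex11a were called lower with the hepatocyte covariate, with the actin covariate and with this centring, and the estimates of these 4 genes stayed below 0 under every alternative tried. With quantile normalization none of the 4 was called (adjusted p 0.670, 0.539, 0.194 and 0.275, limma). None was called with saline 1 and leptin 7 left out either (0.236, 0.206, 0.0630 and 0.0501), nor in the reported fit. Dimmer probe sets of Slc25a20 and Hadh were called lower in the same fits as these 4, and also with Apoa1 left out of the hepatocyte covariate. Decr1 was not called with Apoa1 left out of the hepatocyte covariate (0.0546), and its dimmer probe set gave 0.18 without a covariate. Actin ratio and treatment moved together in these pools, so the part of each in such a fit cannot be told apart.

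**Figure D5:**
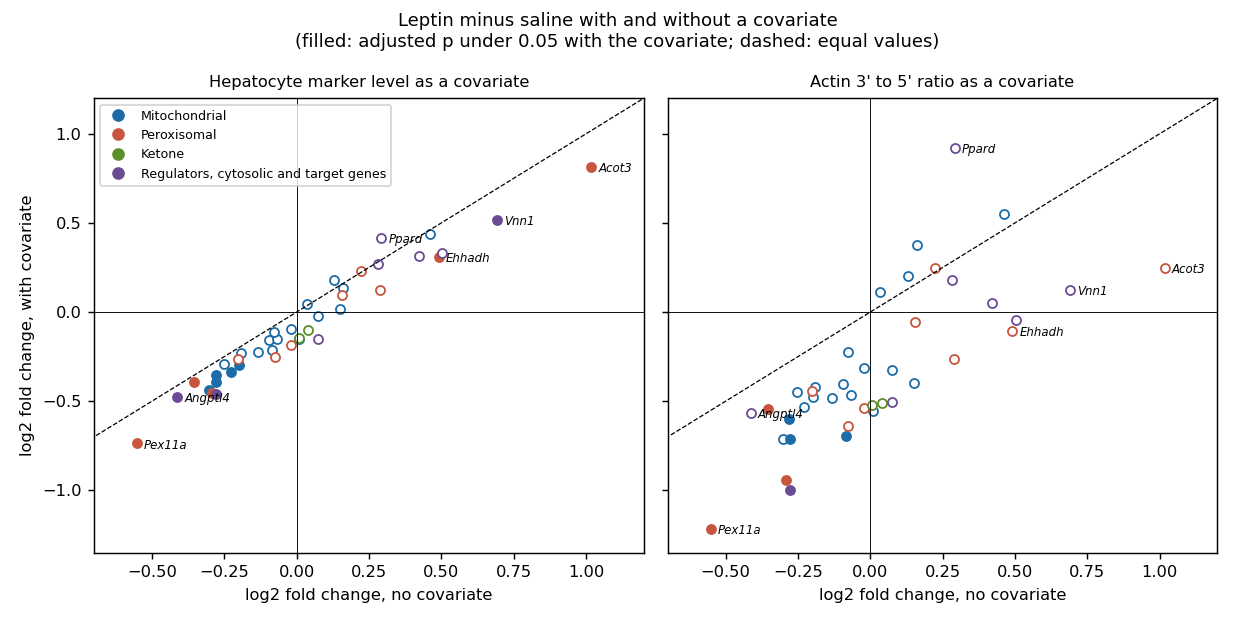
Log2 fold change of the 41 genes with a covariate (vertical axis) against that without (horizontal axis), by class; filled points have an adjusted p under 0.05 with the covariate and the dashed line marks equal values. With the hepatocyte level most points lie a little below the line and 13 are filled. With the actin ratio most points lie further below it, and Acot3 moves from 1.02 to 0.25.

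Other genes of the same pathways, from lists drawn up with these data known, were also mostly uncalled. Of 18 tested further genes of mitochondrial oxidation, 1 rose and 1 fell, with a median of -0.11. Acss1, a mitochondrial acetyl-CoA synthetase, was higher by 0.88 ± 0.19 (adjusted p 0.0157; not called with the actin covariate, 0.140, with median centring, 0.0583, or without saline 2, 0.0509), and Hsd17b10, a mitochondrial dehydrogenase of branched chain and short chain acyl-CoA, fell (-0.62 ± 0.12, adjusted p 0.00772, limma). Of 17 tested further peroxisomal genes none was called, with a median of -0.27, and the lowest p values belonged to Abcd2, a transporter of very long chain acyl-CoA (0.70 ± 0.24, adjusted p 0.0967), and to the biogenesis factor Pex16 (-0.62 ± 0.22, adjusted p 0.105). Of 27 tested partners and targets of PPAR receptors, 3 fell, with a median of -0.12: Slc27a4, a fatty acid transport protein (-0.72 ± 0.16, adjusted p 0.0167), the acyl-CoA synthetase Acsl5 (-0.54 ± 0.12, 0.0212) and the fatty acid receptor Cd36 (-0.49 ± 0.14, 0.0472). Of 22 alternatives, the call was lost in 12 for Cd36 (adjusted p up to 0.131), in 7 for Acsl5 (up to 0.0717) and in 3 for Slc27a4 (up to 0.0918). With 1 pool left out, that of Cd36 was lost for every pool but saline 4, that of Acsl5 for saline 2, 3 and 4 and leptin 6, and that of Slc27a4 for saline 2 and leptin 6. The share called on the whole array was 8.27% of genes.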

How the data were processed

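The deposited values are linear intensities, 1 MAS 5.0 signal per probe set of an Affymetrix mouse array, and MAS5 is named per the submitters' processing notes. The sources used here give no software version or scan date, and no batch could be looked for. Each array's 2% trimmed mean was 250 as deposited by the authors, and arrays were set to a common one, which hides any change shared by all transcripts.

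Of 45101 probe sets, 64 controls were left out, and the brighter 22519 of the rest, split at the median of their mean log2 values, were tested. The treatments were compared on log2(signal + 8.2), which understates changes of dim genes, with lmFit and trended eBayes of limma (version 3.58.1, R 4.3.3). Two-sided p-values were adjusted by the Benjamini-Hochberg method across these 22519 probe sets and read at 0.05. The fit was tested on simulated data. Background was 46.0, the 95th percentile of 27 bacterial control probe sets. With 4 arrays per treatment, their number limits the precision.

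Symbols came from the array's annotation, updated through Entrez identifiers (34754 of the 34958 probe sets with 1 symbol). A gene was read from its brightest tested probe set. The 5 probe sets that list a member among several symbols were not used. Every member is named, and pool values are given for called or non-overlapping members and for a core set chosen by role. Of the other lists, genes called by their brightest probe set, or otherwise the 2 of lowest p, were named, and Aacs was added after its values were seen. The members and all lists were chosen with earlier results of these data known. Alternatives were other normalizations, pseudocounts, filters, eBayes settings, weights, the actin ratio as a covariate and leaving out each pool; the hepatocyte covariates and the omission of 2 pools were added after seeing the data.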

Additional observations from a re-analysis of the deposited data

Results flagged for a closer look

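In 3 of 100 gene and treatment groups of 4 pools, the lowest pool lay far from the others by Dixon's criterion, and chance does this in about 1 of 20 groups. Ehhadh stood at 2814.1 in leptin 7, against 4412.4 to 4760.6 in the other leptin pools. Eci2 stood at 2943.3 in saline 1, against 3279.0 to 3299.5 in the other saline pools. Angptl4 stood at 1458.3 in saline 1, against 2128.6 to 2189.1 in the others. All 3 are low values in the pools with the lowest hepatocyte marker level.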

How the results depend on the processing

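No paired analysis was possible because saline pools are numbered 1 to 4 and leptin pools 5 to 8, so the treatments share no number. Against 1 called probe set among the 65, there were 3 with quantile normalization, 4 with cyclic loess, 14 with arrays centred on the median, 0 without the filter, 4 with the filter at the 75th percentile, 0 without the variance trend (limma throughout; 15 at an unadjusted p under 0.05 in the reported fit), 2 with robust eBayes, 5 with array weights, 10 with the actin covariate, 19 with the hepatocyte covariate, 14 with Apoa1 left out of it and 5 without both low pools. Without the filter all 77 probe sets were tested, and with the filter at the 75th percentile fewer than 65 were. Leaving out 1 pool gave 0 to 4: 2 without saline 1, saline 3 or leptin 5, 4 without leptin 7 and 0 without saline 2, saline 4, leptin 6 or leptin 8.

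Over all tested probe sets, 1561 were called (798 higher, 763 lower), 3992 with median centring (406 higher, 3586 lower), 654 with the actin covariate (249 higher, 405 lower), and 884 to 1431 with 1 pool left out, the low counts being 892 without saline 2, 943 without saline 4, 1028 without leptin 5, 884 without leptin 6 and 985 without leptin 8. Without saline 1, saline 3 or leptin 7 the counts were 1310, 1188 and 1431. They were 1175 with quantile normalization, 1201 with cyclic loess, 1080 without the variance trend, 1580 with robust eBayes and 2112 with array weights. Each of these was out of 22519, while the 75th percentile filter gave 1279 of 11260 and no filter gave 1185 of 45037.

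Median centring gave medians of -0.33 for mitochondrial genes and 0.037 for regulators and targets. The actin covariate gave -0.43 for mitochondrial, -0.44 for peroxisomal and -0.52 for ketone genes and 0.0030 for regulators and targets, whose median was 0.074 with the 75th percentile filter, which tests fewer genes. Otherwise the cause was not tested. With 1 pool left out the medians ran from -0.18 to -0.022 (mitochondrial), -0.16 to 0.14 (peroxisomal), -0.11 to 0.16 (ketone) and 0.24 to 0.36 (regulators and targets). Of the 40 uncalled genes, 25 were called under no alternative and 15 under at least 1, and no call changed direction. The same count was not made over all tested genes, so it is a description of these genes alone. Over all tested probe sets the calls ran from 654 to 3992 between the alternatives. The sign of the estimate, called or not, changed under at least 1 alternative for 21 of the 41 genes.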
